A study of Mus musculus with 2 samples.

Results

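Vascular tone was examined through 10 genes of ion channels, receptors and one G protein regulator, taken from the 27998 genes in the count tables: Kcnmb1, Kcnma1, Cacna1c, Kcnj8, Abcc9, Ednra, Ednrb, Agtr1a, Olfr78 and Rgs5. The genes were listed by name for their known roles in blood vessels, with earlier results of these data known, and all 10 were present in the tables. Their levels were read in smooth muscle cells, which were barcodes with at least 5 UMIs of Myh11 and at least 20 UMIs of Acta2 and Tagln together, and in the other cell classes. A UMI is a unique molecular identifier, the tag that marks each captured RNA molecule. The quadriceps of the thigh and the diaphragm, the main muscle of breathing, each gave 1 droplet library of mononuclear cells from C57BL/6J mice, with 10 mice in all and cells of several animals combined within each tissue. The labels name no engineered allele, treatment or age. Muscle was minced, digested with collagenase B and dispase II for 1 h at 37 °C, passed over a density medium and sorted for viable cells by light scatter, so muscle fibres themselves were not sampled. With 1 library per tissue no test across animals was possible, and tissue, library and pool of mice cannot be told apart.

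Arterial smooth muscle contracts when calcium enters through the voltage-gated L-type channel, whose pore is encoded by Cacna1c. Large-conductance calcium-activated potassium (BK) channels, built from the pore encoded by Kcnma1 and the regulatory beta subunit encoded by Kcnmb1, let potassium out and oppose that contraction. ATP-sensitive potassium channels, built from the pore encoded by Kcnj8 and the sulfonylurea receptor encoded by Abcc9, do the same when the cell's energy state falls. Endothelin acts on the receptors encoded by Ednra and Ednrb, and angiotensin II acts on the type 1 receptor encoded in the mouse mainly by Agtr1a. Olfr78 encodes an odorant receptor known outside the nose, in blood vessels and in oxygen-sensing tissue, where short-chain fatty acids and lactate have been described as ligands. Rgs5 encodes a GTPase-activating protein that shortens G protein signals and is a usual marker of pericytes, the cells that wrap capillaries.

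Both channel types are complexes of a pore and a regulatory subunit, and the promoter windows of these 4 genes are shown. As a class, smooth muscle cells had higher levels of both BK genes than the connective tissue progenitors described below. The ATP-sensitive pair was not detectably higher there. Detection in single cells is described separately below. Each window is the RefSeq sequence on GRCm38.p6 from 250 bases before to 50 bases after the transcript start, 5′ to 3′ on the gene's own strand, with capitals marking every match of the motifs searched. Kcnmb1 spans chr11:33962763-33963062 on the plus strand, Kcnma1 chr14:24004156-24004455 on the minus strand, Kcnj8 chr6:142571565-142571864 on the minus strand and Abcc9 chr6:142702225-142702524 on the minus strand.
Kcnmb1: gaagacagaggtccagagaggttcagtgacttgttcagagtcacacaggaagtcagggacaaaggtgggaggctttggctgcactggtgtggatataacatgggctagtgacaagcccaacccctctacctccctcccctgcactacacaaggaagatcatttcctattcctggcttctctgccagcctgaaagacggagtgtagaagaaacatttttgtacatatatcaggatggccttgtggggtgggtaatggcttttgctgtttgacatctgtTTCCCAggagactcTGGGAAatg
Kcnma1: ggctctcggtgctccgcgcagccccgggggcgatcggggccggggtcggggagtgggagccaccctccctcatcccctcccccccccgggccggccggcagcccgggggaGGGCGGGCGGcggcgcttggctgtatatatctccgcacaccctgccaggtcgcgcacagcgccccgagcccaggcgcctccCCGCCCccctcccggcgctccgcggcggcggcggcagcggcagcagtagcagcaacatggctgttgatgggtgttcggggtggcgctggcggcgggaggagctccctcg
Kcnj8: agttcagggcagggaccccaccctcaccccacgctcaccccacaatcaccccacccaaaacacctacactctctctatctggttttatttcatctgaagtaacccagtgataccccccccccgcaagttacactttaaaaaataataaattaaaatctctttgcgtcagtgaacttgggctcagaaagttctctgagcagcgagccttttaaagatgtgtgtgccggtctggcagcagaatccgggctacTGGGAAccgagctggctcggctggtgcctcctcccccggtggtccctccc
Abcc9: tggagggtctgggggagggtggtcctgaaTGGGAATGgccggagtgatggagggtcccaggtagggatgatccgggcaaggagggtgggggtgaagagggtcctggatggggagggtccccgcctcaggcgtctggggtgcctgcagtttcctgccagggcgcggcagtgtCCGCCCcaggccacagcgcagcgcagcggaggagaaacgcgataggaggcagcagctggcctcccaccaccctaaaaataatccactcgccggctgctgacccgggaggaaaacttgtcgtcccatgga
Windows were found for 8 of the 10 genes, 10 windows in all, and none for Agtr1a and Olfr78. Both strands were searched for the CArG box (the serum response factor motif, by name), CATTCC (the MCAT element of TEAD factors), TGGGAA (the core of RBPJ, the Notch pathway factor), GGGCGG (the GC box) and TATAAA. The capitals in Kcnmb1 are TGGGAA cores at +28, on the reverse strand, and at +42 from the start. Kcnma1 carried GGGCGG at -140, at -136 with overlap, and on the reverse strand at -59. Kcnj8 carried TGGGAA at +1, and Abcc9 carried TGGGAA at -221 overlapping a reverse CATTCC at -219, with a reverse GGGCGG at -79. None of the 10 windows held a CArG box or TATAAA. Among 32851 promoter windows of the same length, a CArG box was present in 1.63%, CATTCC in 14.7%, TGGGAA in 25.6%, GGGCGG in 35.7% and TATAAA in 13.6%. These matches are descriptions of letters and not of bound sites.

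Quadriceps gave 5159 barcodes with 50854519 UMIs and diaphragm gave 2499 barcodes with 28545242 UMIs, and 5010 and 2430 barcodes were kept after limits on low and high UMI totals. Smooth muscle cells numbered 1227 in quadriceps (24.5% of kept barcodes) and 42 in diaphragm (1.73%), with medians of 14761 and 11820 UMIs. FAP-like cells, the fibro-adipogenic progenitors of muscle connective tissue, numbered 2415 and 2104 with medians of 10481 and 12441.5 UMIs. Of the smooth muscle cells, 1221 in quadriceps and all 42 in diaphragm had more than 5% mitochondrial UMIs, with median mitochondrial shares of 17.0% and 18.4%. The 2 libraries shared 5 barcode sequences, 1 of which was a quadriceps smooth muscle cell. Another class's marker gate was also passed by 77 quadriceps smooth muscle cells, 59 of them by the FAP gate, and by 0 in diaphragm. The gate itself lay near few cells, with 43 quadriceps cells just inside it and 47 just outside.

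The smooth muscle label was checked on 8 contractile markers that the gate did not use. All 8 were seen, and their summed level was 15743.5 CPM (a class's UMIs rescaled to the same total in every class) in quadriceps smooth muscle cells against 173.3 CPM in FAP-like cells. In diaphragm the sums were 13630.9 and 93.4 CPM. Cnn1, the thin-filament protein calponin, had a UMI in 96.7% of quadriceps smooth muscle cells. The summed level of 8 FAP markers was 418 CPM in quadriceps smooth muscle cells against 12530 CPM in FAP-like cells, and it was 62.3 CPM in diaphragm smooth muscle cells with 7 of 8 seen. Pericyte markers were also present, with all 8 seen at a sum of 1750 CPM in quadriceps and 2294 CPM in diaphragm. In quadriceps smooth muscle cells Notch3 was at 516 CPM, Mcam at 455, Ndufa4l2 at 318, Cspg4 at 268, Pdgfrb at 151, Higd1b at 23.3, Steap4 at 11.6 and Vtn at 6.67 CPM. Steap4 and Vtn were higher in quadriceps FAP-like cells, at 201 and 102 CPM, so those 2 genes did not separate pericytes from FAP-like cells here. Endothelial markers summed to 11.8 and 4.16 CPM.

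Levels below are UMIs of a class divided by all UMIs of that class, with 95% exact Poisson intervals that cover counting error only and not the spread between mice. These are 3′ UMI counts, so levels are compared between classes for 1 gene and not between genes. Classes of at least 20 cells gave 15 columns in the heat map of the 10 genes.

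**Figure D1:**
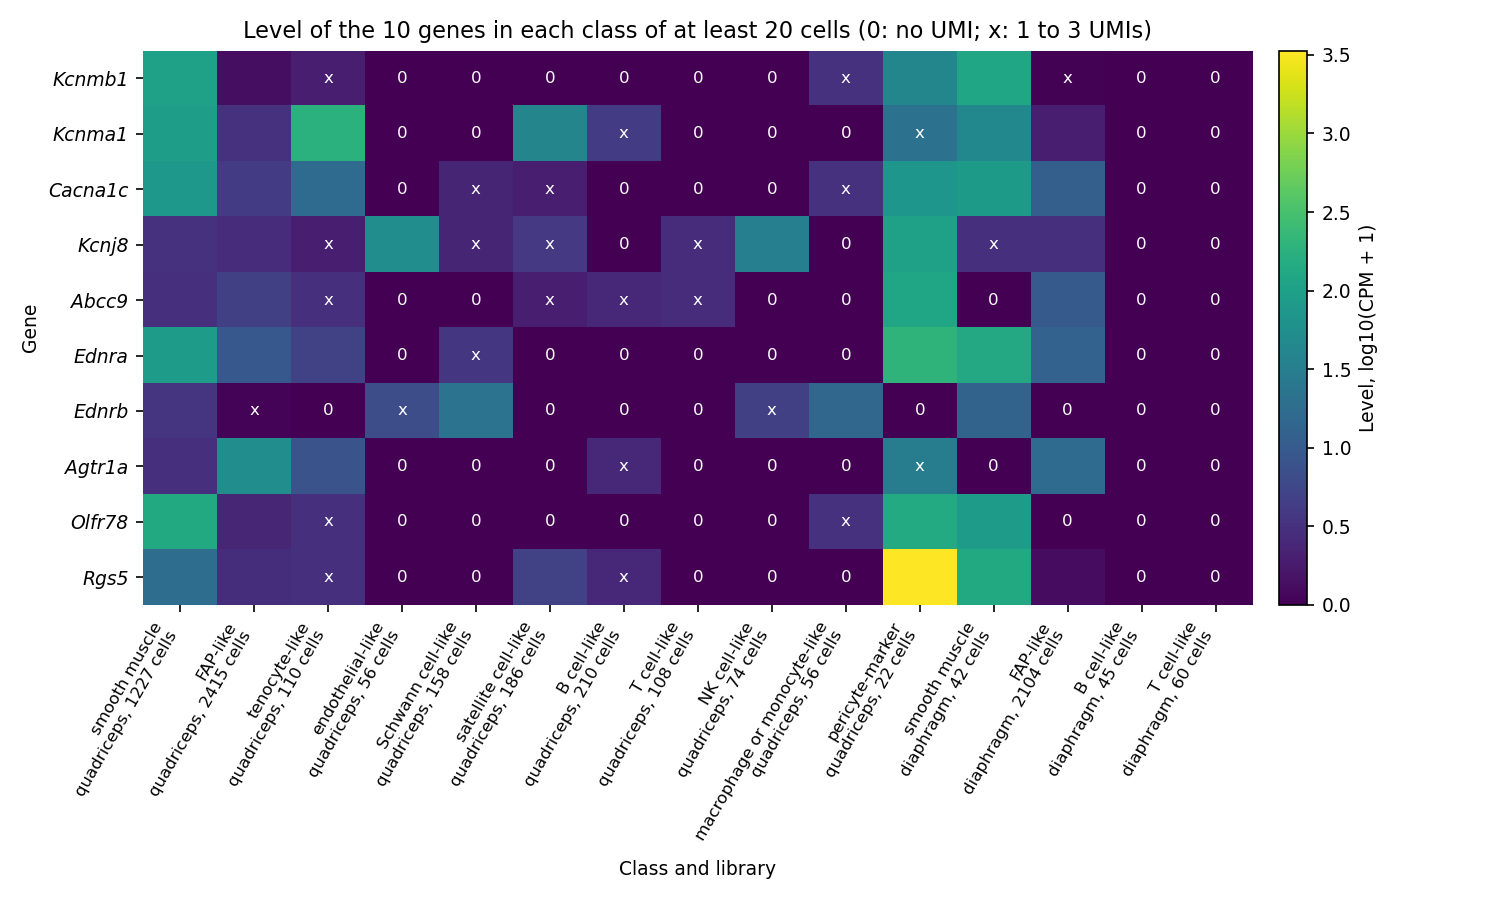
Heat map of log10(CPM + 1) for the 10 genes (vertical axis) in the 15 classes with at least 20 cells (horizontal axis, by library); a 0 marks no UMI and an x marks 1 to 3 UMIs. Kcnmb1, Cacna1c, Ednra and Olfr78 were high in both smooth muscle columns, whereas Agtr1a was high in FAP-like cells and Kcnma1 was highest in quadriceps tenocyte-like cells.

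Kcnmb1 (chr11:33963013-33973641, plus strand, GRCm38), the BK channel beta subunit that raises the channel's calcium sensitivity, was the member most restricted to smooth muscle in quadriceps. Its level was 103 CPM in quadriceps smooth muscle cells (1887 UMIs, interval 98.5 to 108) and 118 CPM in diaphragm smooth muscle cells (57 UMIs, interval 89.7 to 153). FAP-like cells were at 0.349 CPM (9 UMIs) in quadriceps and at 0.0378 CPM (1 UMI) in diaphragm. The quadriceps level was therefore 295-fold higher in smooth muscle (interval 155 to 647). The diaphragm ratio of 3129 (interval 539.5 to 125747) rested on that single FAP UMI. Smooth muscle cells held 98.9% of the gene's quadriceps UMIs and 98.3% of its diaphragm UMIs. A UMI was seen in 71.9% of quadriceps smooth muscle cells and 73.8% of those in diaphragm, against 0.373% of quadriceps FAP-like cells. Kcnmb1 lies inside Kcnip1, which is on the opposite strand, and whether the counting used strand is not given in the sources used here.

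Kcnma1 (chr14:23289431-24014491, minus strand), the BK pore, reached 94.3 CPM in quadriceps smooth muscle cells (1726 UMIs, interval 89.9 to 98.9) and 43.6 CPM in diaphragm (21 UMIs, interval 27.0 to 66.7). The FAP-like cells were at 2.13 CPM (55 UMIs) and 0.984 CPM (26 UMIs), so the ratio of smooth muscle to FAP-like cells was 44.2 (interval 33.8 to 58.9) in quadriceps and 44.3 (23.7 to 82.0) in diaphragm. Both classes were lower in diaphragm than in quadriceps. Its highest level was in quadriceps tenocyte-like cells, the cells of tendon, at 177 CPM (176 UMIs, interval 152 to 205), where 46.4% of 110 cells had a UMI and 1 cell had 18. Satellite cell-like cells, the muscle stem cells, were at 38.8 CPM (40 UMIs, interval 27.7 to 52.9). Ordered by level, tenocyte-like cells and quadriceps smooth muscle cells had intervals apart from each other and from the rest, whereas those of diaphragm smooth muscle and satellite cell-like cells overlapped. Over the tenocyte-like cells the variance of Kcnma1 UMIs was 5.47 times their mean, so the Poisson interval there understates the error. Kcnmb1 had 1 UMI in the quadriceps tenocyte-like cells, so the pore was seen there almost without its beta subunit. Diaphragm had 9 tenocyte-like cells with 131700 UMIs in all, fewer than the 20 cells asked of a class. Of those, 2 cells had a Kcnma1 UMI and none had more than 1, so the high level was seen in quadriceps only.

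Cacna1c (chr6:118587240-119196418, minus strand), the L-type calcium channel pore, was at 75.2 CPM in quadriceps smooth muscle cells (1376 UMIs, interval 71.3 to 79.3) and 83.1 CPM in those of diaphragm (40 UMIs, interval 59.4 to 113). FAP-like cells were at 3.30 CPM (85 UMIs, interval 2.63 to 4.08) in quadriceps and 10.7 CPM (284 UMIs, interval 9.53 to 12.1) in diaphragm. The ratio to FAP-like cells was 22.8 (interval 18.3 to 28.7) in quadriceps and 7.73 (5.41 to 10.8) in diaphragm. The smooth muscle intervals of the 2 tissues overlapped and the FAP-like intervals did not. Smooth muscle cells held 90.9% of the quadriceps UMIs of Cacna1c but 12.0% of those in diaphragm, where FAP-like cells held 85.5%. The quadriceps pericyte-marker cells, 22 barcodes with at least 3 pericyte markers, were at 71.2 CPM (7 UMIs, interval 28.6 to 147), which overlapped both smooth muscle levels.

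The listed ATP-sensitive channel genes, Kcnj8 and Abcc9, were not detectably higher in smooth muscle cells than in FAP-like cells. Kcnj8 (chr6:142564837-142571614, minus strand), the pore, was at 2.19 CPM in quadriceps smooth muscle cells (40 UMIs) and 1.82 CPM in FAP-like cells (47 UMIs), a ratio of 1.2 with an interval of 0.766 to 1.87. In diaphragm the 2 classes had 1 UMI (2.08 CPM) and 54 UMIs (2.04 CPM), and the interval of the ratio was wide, 0.0253 to 5.91. Abcc9 (chr6:142587862-142702315, minus strand), the sulfonylurea receptor subunit, was at 2.13 CPM in quadriceps smooth muscle cells (39 UMIs) and 3.69 CPM in FAP-like cells (95 UMIs), a ratio of 0.578 (interval 0.388 to 0.848). Diaphragm smooth muscle cells had 0 UMIs of Abcc9, and with the limit of 3 counts that a 0 allows the level was at least 1.45-fold lower than the 9.04 CPM of FAP-like cells (239 UMIs), or 1.17-fold by the exact interval of the ratio.

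Both genes had their highest level in the quadriceps pericyte-marker cells. Those 22 barcodes also carried contractile RNA, with a summed level of 3176 CPM over the 8 smooth muscle check markers beside 2707 CPM over the 8 pericyte markers, and Acta2 was seen in 81.8% of them. Their median depth was 4182.5 UMIs and their median mitochondrial share 29.0%, and the part of these in the result was not tested. Kcnj8 was at 102 CPM there (10 UMIs in 4 cells, interval 48.8 to 187) and Abcc9 at 122 CPM (12 UMIs in 5 cells, interval 63.1 to 213). The variance over the 22 cells was 3.09 times the mean for Kcnj8 and 3.27 times for Abcc9. The tenth of cells with the most UMIs held 70% and 75% of them. Both Poisson intervals therefore understate the error, and the place of these cells in the order is uncertain. Kcnj8 was also seen in endothelial-like cells, which line vessels, at 52.6 CPM (9 UMIs in 4 cells), and in NK cell-like cells at 32.7 CPM (9 UMIs in 9 cells), while Abcc9 had no UMI in the endothelial-like cells. The intervals of the pericyte-marker and endothelial-like levels of Kcnj8 overlapped. The genes are neighbours on chromosome 6, 16.2 kb apart with 0 protein-coding genes between them. Abcc9 shares an exon region with the antisense gene 5330439B14Rik, so its few UMIs are uncertain if strand was not used. Kcnma1 shares one with 4930519K11Rik and Ednra with 4933431K23Rik, both on the opposite strand, so the same limit holds for reads of those regions. Abcc8, which encodes the other sulfonylurea receptor, was at 19.9 CPM in quadriceps smooth muscle cells (364 UMIs, in 23.9% of cells) against 0.0388 CPM in FAP-like cells, and at 16.6 CPM (8 UMIs) in diaphragm smooth muscle cells. Kcnj11, the other pore gene, had 1 UMI in quadriceps smooth muscle cells. Abcc8 and Kcnj11 are named here after their values were seen.

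Ednra (chr8:77663031-77724464, minus strand), the endothelin receptor that mediates constriction in smooth muscle, was at 86.6 CPM in quadriceps smooth muscle cells (1584 UMIs, interval 82.4 to 90.9) and 133 CPM in those of diaphragm (64 UMIs, interval 102 to 170). FAP-like cells also carried it, at 8.42 CPM (217 UMIs) and 11.9 CPM (315 UMIs). The ratio of smooth muscle to FAP-like cells was 10.3 (interval 8.91 to 11.9) in quadriceps and 11.2 (8.39 to 14.6) in diaphragm. In diaphragm, with 2104 FAP-like and 42 smooth muscle cells, the FAP-like cells held 81.4% of the Ednra UMIs and smooth muscle cells 16.5%. Pericyte-marker cells stood first in the order at 193 CPM (19 UMIs in 10 of 22 cells, interval 116 to 302), with an interval that overlapped diaphragm smooth muscle and lay above quadriceps smooth muscle. The variance of Ednra UMIs over those 22 cells was 2.57 times their mean, and 5 cells held 73.7% of them. That Poisson interval therefore understates the error, and the order over quadriceps smooth muscle is uncertain.

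Ednrb (chr14:103814625-103844402, minus strand), the second endothelin receptor, best known in endothelium and in neural crest derivatives such as glia, was rare. Quadriceps smooth muscle cells had 46 UMIs (2.51 CPM) against 2 UMIs in FAP-like cells (0.0776 CPM), a ratio of 32.4 with a counting interval of 8.47 to 275. Diaphragm smooth muscle cells had 6 UMIs in 2 cells (12.5 CPM), 4 of them in 1 cell, while FAP-like cells had 0, and the exact 95% interval of the ratio began at 64.6. Its log2 difference of 3.75 fell to 2.38 when Scrublet, a doublet caller, took out 1 diaphragm cell. Schwann cell-like cells, the glia of peripheral nerve, had the highest level at 21.1 CPM (16 UMIs in 11 cells, interval 12.0 to 34.2). The 13.4 CPM of macrophage or monocyte-like cells came from 6 UMIs in 1 cell.

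Agtr1a (chr13:30336441-30382867, plus strand), the angiotensin II type 1a receptor, followed the opposite pattern and was a FAP gene in these libraries. FAP-like cells were at 52.7 CPM in quadriceps (1358 UMIs, interval 49.9 to 55.6) and 16.2 CPM in diaphragm (428 UMIs, interval 14.7 to 17.8), and they held 96.0% and 95.7% of each library's UMIs. Smooth muscle cells were at 2.08 CPM in quadriceps (38 UMIs) and had 0 UMIs in diaphragm. The quadriceps level was 25.4-fold higher in FAP-like than in smooth muscle cells (interval 18.4 to 36.0), and the diaphragm smooth muscle level was at least 2.60-fold lower at the limit of 3 counts, or 2.10-fold by the exact interval. Of the 38 smooth muscle UMIs, 26 lay in the 77 cells that also passed another class's gate (15.3 CPM) and 12 in the other 1150 cells (0.723 CPM). Without those 77 cells the log2 difference moved from -4.13 to -4.96. A UMI was seen in 37.8% of quadriceps FAP-like cells and 16.6% of those in diaphragm. After thinning each cell to 1000 UMIs the shares were 5.34% and 1.66%, against 0.163% of quadriceps smooth muscle cells.

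Olfr78 (chr7:102738511-102759471, minus strand), the odorant receptor, had more UMIs in quadriceps smooth muscle cells than any other of the 10 genes. Its level was 139 CPM in quadriceps (2541 UMIs, interval 134 to 144) and 89.3 CPM in diaphragm (43 UMIs, interval 64.7 to 120). FAP-like cells were at 1.36 CPM (35 UMIs) in quadriceps and had 0 UMIs in diaphragm, so the ratio was 102 (interval 73.3 to 147) in quadriceps and at least 786.9-fold in diaphragm at the limit of 3 counts, or 612.9-fold by the exact interval. Pericyte-marker cells were at 142 CPM (14 UMIs in 7 cells, interval 77.9 to 239), a level not apart from either smooth muscle class. Olfr78 shares exons on the same strand with Olfr560, which is not among the genes of the count tables, so reads of the shared exons are uncertain. A second odorant receptor gene, Olfr558, lies 26.4 kb away on chromosome 7 with 2 protein-coding genes between them. Olfr558 was at 501 CPM in quadriceps smooth muscle cells against 1.63 CPM in FAP-like cells, and at 529.8 against 0.265 CPM in diaphragm.

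Within quadriceps smooth muscle cells, the Olfr78 level moved with the mitochondrial share and with depth. Over 4 equal groups of cells ordered from the lowest to the highest mitochondrial share it was 107, 124, 154 and 183 CPM, and over 4 groups ordered from the lowest to the highest UMI total it was 188, 149, 141 and 114 CPM. Kcnmb1 over the same groups by mitochondrial share was 104, 113, 101 and 91.3 CPM. The part of cell quality in the Olfr78 level was not tested.

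**Figure D2:**
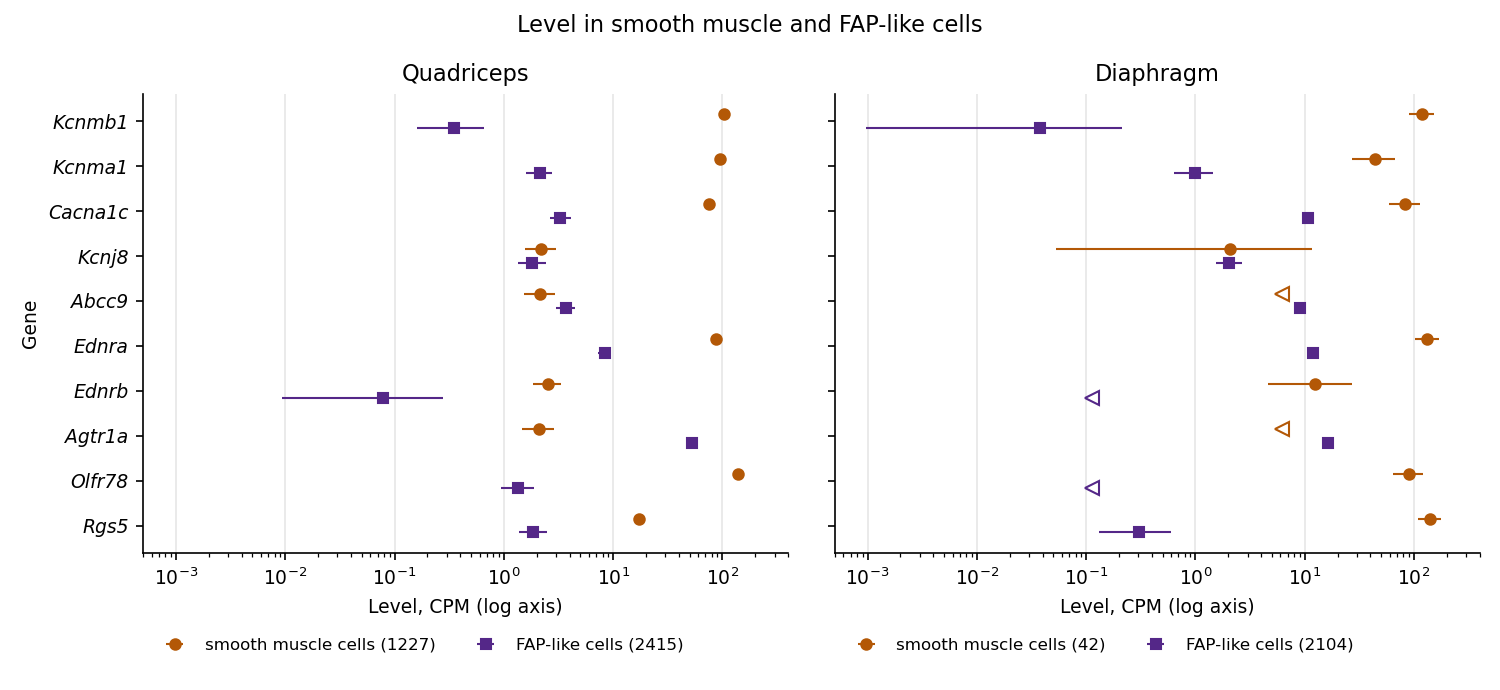
Level of each gene in CPM (log axis) with 95% exact Poisson intervals, by library, for smooth muscle cells (orange circles) and FAP-like cells (purple squares); an open triangle stands for no UMI and is drawn at the level of 3 counts. Kcnmb1 and Olfr78 show the widest gaps between the classes, Kcnj8 shows none, and Agtr1a lies higher in FAP-like cells.

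For smooth muscle against FAP-like cells, a difference was called at 4-fold or more on the log2(CPM + 1) scale with at least 20 CPM in the higher class. Of the 10 genes, 6 reached that level in either class in quadriceps, and 5 were called higher in smooth muscle (Kcnmb1, Kcnma1, Cacna1c, Ednra and Olfr78), where 7.72% of 6928 genes were called higher. Agtr1a was the 1 called lower, where 13.5% of all genes tested were called lower. In diaphragm 6 reached the level and all of those were called higher, the same 5 and Rgs5, against a background of 8.61% of 6895 genes. None was called lower in diaphragm, where 15.3% of all genes were. The log2 differences in quadriceps were 6.27 for Kcnmb1, 5.89 for Olfr78, 4.93 for Kcnma1, 4.15 for Cacna1c, 3.22 for Ednra and -4.13 for Agtr1a. In diaphragm they were 6.85, 6.50, 4.49, 2.84 and 3.37 for the same 5 genes higher in smooth muscle. The genes that reached the level had medians of 4.54 and 5.49, and all genes tested had medians of -0.35 and -0.30. A gene can reach the level through the class where it is high, so the medians describe the genes that passed and not all 10. The 10 genes were chosen with earlier results of these data known, so their counts beside all genes are a description.

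Shares of cells with a UMI were compared after each cell had been thinned to 1000 UMIs. At that depth 13.4% of quadriceps smooth muscle cells had an Olfr78 UMI, 9.05% an Ednra UMI, 8.56% a Kcnma1 UMI, 8.15% a Kcnmb1 UMI and 7.66% a Cacna1c UMI. Among 210 B cell-like cells, a class that should lack these genes, none had a UMI of any of the 5 at that depth, which allows a share of cells with a UMI of up to 1.43% by the limit of 3 counts and 1.74% by the exact binomial interval. Before thinning, the medians were 3002 UMIs in B cell-like cells and 14761 UMIs in quadriceps smooth muscle cells. Quadriceps FAP-like cells had at most 1.12% for these 5 genes.

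Rgs5 (chr1:169655501-169695813, plus strand), the regulator of G protein signalling, was spread over cells unlike the other genes. It was at 17.3 CPM in quadriceps smooth muscle cells (316 UMIs, interval 15.4 to 19.3) and 139 CPM in those of diaphragm (67 UMIs, interval 108 to 177). FAP-like cells were at 1.86 CPM (48 UMIs, 21 of them in 1 cell) and 0.303 CPM (8 UMIs). The ratio to FAP-like cells was 9.27 (interval 6.83 to 12.8) in quadriceps, where neither class reached 20 CPM, and 459.8 (220.4 to 1109) in diaphragm. The 22 quadriceps pericyte-marker cells were at 3359 CPM, from 330 UMIs in 7 cells, and held 46.1% of the library's Rgs5 UMIs against 44.1% for the 1227 smooth muscle cells.

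Within the quadriceps smooth muscle cells a UMI of Rgs5 was seen in 4.4%, and 5 cells held 72.8% of all its UMIs, the highest with 125. The variance of Rgs5 UMIs over these cells was 67.5 times their mean, whereas that ratio was 1.16 to 2.19 for Cacna1c, Ednra, Kcnmb1, Kcnma1 and Olfr78. The Poisson intervals of Rgs5 therefore understate its error. Of the 1227 cells, 1173 had no Rgs5 UMI, 39 had 1 or 2, and 15 had at least 3 and held 269 of the 316 UMIs. This division was chosen after the values were seen, and it is described without a test.

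In the 15 cells with at least 3 Rgs5 UMIs, Kcnj8 was at 31.9 CPM (7 UMIs in 4 cells, interval 12.8 to 65.7). Abcc9 was at 45.6 CPM there (10 UMIs in 6 cells, interval 21.8 to 83.8). The cells without Rgs5 were at 1.88 CPM for Kcnj8 and 1.60 CPM for Abcc9. Of the 8 pericyte markers, Vtn was at 209.5 CPM (46 UMIs in 7 cells) against 4.22 CPM and Steap4 at 45.6 (10 UMIs in 4 cells) against 11.3. Ndufa4l2 was at 669.6 against 307 and Pdgfrb at 246 against 149 CPM. Notch3 at 574 against 514 CPM, Mcam at 483 against 454 CPM, Higd1b at 36.4 against 23.1 CPM and Cspg4 at 200.4 against 269 CPM had overlapping intervals, with Cspg4 the 1 that lay lower. The smooth muscle channel genes were present in the same 15 cells on few UMIs. Kcnmb1 was at 59.2 CPM (13 UMIs) against 104 CPM, Kcnma1 at 41.0 (9 UMIs) against 95.5 CPM and Cacna1c at 95.7 (21 UMIs) against 74.0 CPM. Ednra was at 86.5 and 86.6 CPM and Olfr78 at 155 and 137 CPM in the 2 sets, and Olfr78 was at 181 CPM (interval 147 to 221) in the 39 cells with 1 or 2 Rgs5 UMIs. The contractile gene Myh11 was at 4127 CPM in the 15 cells, 6132 CPM in the cells without Rgs5 and 1262 CPM in the pericyte-marker cells, and Cnn1 was at 606, 719 and 112 CPM. Another class's gate was passed by 3 of the 15 cells. In diaphragm, 7 of 42 cells had at least 3 Rgs5 UMIs and held 62 of 67, and Kcnj8 and Abcc9 had 0 UMIs in them. Those 7 cells included 4 of the 6 Ednrb UMIs.

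**Figure D3:**
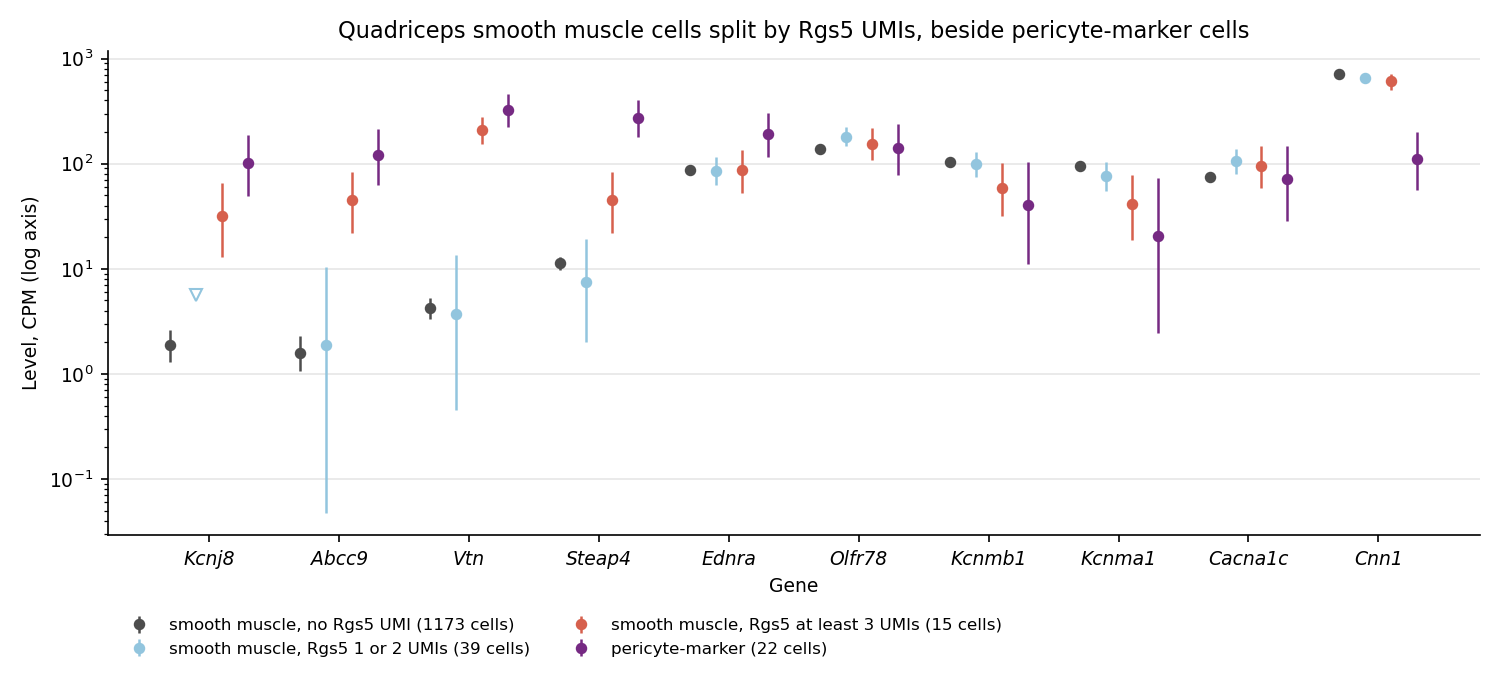
Level in CPM (log axis) of channel, receptor, pericyte and contractile genes in quadriceps smooth muscle cells with 0, 1 to 2 and at least 3 Rgs5 UMIs, and in the 22 pericyte-marker cells. Kcnj8, Abcc9 and Vtn were highest in the cells with at least 3 Rgs5 UMIs and the pericyte-marker cells, while Ednra lay between 85.9 and 86.6 CPM in the 3 smooth muscle sets and Olfr78 between 137 and 181 CPM.

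Diaphragm and quadriceps were compared within smooth muscle cells, with a call at 2-fold or more and at least 50 CPM in the higher tissue. Of the 6 genes that reached that level, Rgs5 was the 1 called higher in diaphragm, where 4.53% of 2850 genes were called higher, and Kcnma1 was the 1 called lower, where 2.81% were. Rgs5 was 8.06-fold higher in diaphragm (interval 6.10 to 10.5). In each library 5 cells held most of its UMIs, 80.6% in diaphragm and 72.8% in quadriceps. The variance over cells was 9.73 and 67.5 times the mean, so that interval understates the error. From the lowest to the highest UMI total, Rgs5 was at 100, 6.10, 5.61 and 3.52 CPM in 4 groups of quadriceps cells. In 2 groups of diaphragm cells it was at 258 and 64.4 CPM, and the part of depth was not tested. The log2 difference of Rgs5 between the tissues was 2.94, and it was 1.96 with classes taken from clusters and 2.12 with a looser smooth muscle gate. A UMI of Rgs5 was seen in 26.2% of the 42 cells (interval 13.9% to 42.0%) against 4.4% in quadriceps (3.32% to 5.70%). After thinning to 1000 UMIs the Rgs5 shares were 7.14% (1.5% to 19.5%) and 0.652% (0.282% to 1.28%). Kcnma1 was at 0.463 of its quadriceps level in diaphragm (interval 0.286 to 0.709), a log2 difference of -1.09, and a UMI was seen in 38.1% against 68.2% of cells. Kcnmb1, its partner, had a ratio of 1.15 (interval 0.866 to 1.49) and Cacna1c 1.11 (0.786 to 1.51), so neither difference was detectable at this depth. Ednra had a ratio of 1.54 (interval 1.18 to 1.97) and Olfr78 0.643 (0.464 to 0.869), both short of 2-fold with intervals that left out 1. Ednrb had a ratio of 4.96 (interval 1.73 to 11.6) on 6 diaphragm UMIs from 2 cells and lay below the 50 CPM minimum, and its log2 difference fell to 0.60 without the diaphragm cell that Scrublet took out. The median log2 difference over all genes tested was -0.10 and that over the 6 genes was 0.17.

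**Figure D4:**
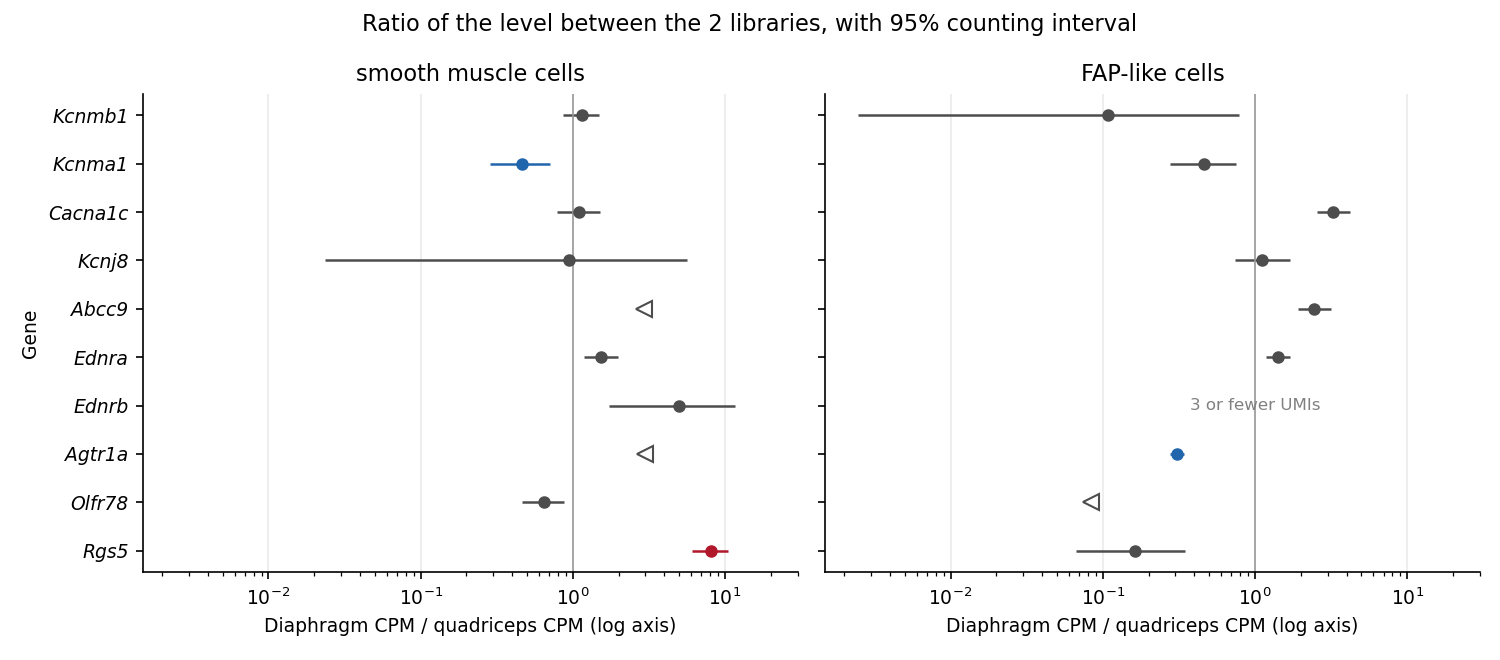
Diaphragm level divided by quadriceps level (log axis) for each gene, with 95% counting intervals, in smooth muscle cells and in FAP-like cells; red marks genes called higher and blue genes called lower in diaphragm, grey marks no call, and an open triangle is a bound for a diaphragm count of 0. Rgs5 lies above and Kcnma1 below the line of equality in smooth muscle cells, and Agtr1a lies below it in FAP-like cells.

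In FAP-like cells 1 of the 10 genes, Agtr1a, reached 50 CPM, and it was called lower in diaphragm, where 2.96% of 3315 genes were called lower. None was called higher, where 3.68% were. Agtr1a was 3.25-fold higher in quadriceps FAP-like cells (interval 2.92 to 3.64), a log2 difference of -1.64 for diaphragm against quadriceps. Below that minimum, Cacna1c was 3.26-fold higher in diaphragm FAP-like cells (interval 2.55 to 4.20) and Abcc9 2.45-fold higher (1.93 to 3.15). Kcnma1 in FAP-like cells had a diaphragm to quadriceps ratio of 0.461 (interval 0.277 to 0.748), close to its 0.463 in smooth muscle cells. Ednra had a ratio of 1.42 (interval 1.19 to 1.69) and Kcnj8 1.12 (0.744 to 1.69). Rgs5 went the other way from smooth muscle, at 0.163 (interval 0.0664 to 0.347) on 8 diaphragm UMIs, but with a 5% mitochondrial limit its log2 difference turned from -1.14 to 0.33. Olfr78 with 0 diaphragm UMIs was at least 11.96-fold lower at the limit of 3 counts, or 9.23-fold by the exact interval. Smooth muscle marker genes moved the same way between the FAP-like classes, with Acta2 at 109 CPM (in 64.5% of cells) in quadriceps and 11.7 CPM (7.60%) in diaphragm, and Myh11 at 23.7 and 1.25 CPM. Smooth muscle cells were 24.5% of the kept quadriceps barcodes and 1.73% of those in diaphragm, and the part of their RNA in the FAP-like levels of Olfr78, Kcnmb1, Kcnma1 and Rgs5 was not tested.

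FAP-like cells were also divided by whether the markers of the Fbn1 side or the Lum side of these progenitors had at least 2-fold the other's summed UMIs, a division made after the values were seen. The Fbn1 side had 873 cells in quadriceps and 424 in diaphragm, the Lum side had 936 and 720, and 606 and 960 cells lay between the sides. Ednra was at 1.59 CPM on the Fbn1 side and 15.2 CPM on the Lum side in quadriceps, and at 5.27 and 16.9 CPM in diaphragm. Abcc9 lay the same way, at 1.88 and 4.5 CPM in quadriceps and 1.02 and 10.5 CPM in diaphragm, but the cells between the sides had the highest values, 5.33 and 11.9 CPM. Agtr1a was higher on the Fbn1 side in quadriceps, at 65.3 against 47.2 CPM, and in diaphragm its 20.1 and 16.6 CPM had overlapping intervals.

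Whether single smooth muscle cells carried several of these genes was read from pairs seen in the same cell after thinning to 3000 UMIs, which left 1208 quadriceps cells. For the 10 pairs among Kcnmb1, Kcnma1, Cacna1c, Ednra and Olfr78, the number of cells with both was 0.856 to 1.13 times the number that independent detection would give. At 1000 UMIs, the depth planned for this count, the same pairs ran more widely, from 0.353 to 1.43. The lowest was Cacna1c and Ednra, with 3 cells against 8.50, and the highest was Cacna1c and Olfr78, with 18 against 12.6. Kcnmb1 and Kcnma1, the parts of 1 channel, were seen together in 74 cells against 69.6 from independence, and Kcnmb1 and Olfr78 in 88 against 103. Kcnmb1 and Rgs5 were seen together in 1 cell against 6.91 from independence, and Kcnj8 and Abcc9 in 3 cells against 0.0745. Both of those counts are small. At the same depth Rgs5 was seen with Kcnma1 in 2 cells against 5.64 and with Olfr78 in 6 against 8.33. It was seen with Cacna1c in 6 cells against 5.66 and with Ednra in 8 against 5.62. Before thinning, Kcnmb1 was seen in 847 of 1173 quadriceps smooth muscle cells without Rgs5. The counts were 28 of 39 cells with 1 or 2 Rgs5 UMIs and 7 of 15 with at least 3.

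The genes whose levels ran most like each member were named from Pearson's r of log2 levels across the 15 classes, among 10970 genes. The points share libraries and differ in depth, so r is a description. Kcnmb1 was most like Olfr78 (r = 0.98), Rasd2 (0.98) and Myocd (0.98), the smooth muscle coactivator. Olfr78 was most like Kcnmb1, RP23-152P20.3 (0.97) and Hapln3 (0.97), and Ednra was most like Mir143hg (0.96), the host gene of a smooth muscle microRNA cluster, Gucy1a2 (0.96) and Slc24a3 (0.96). Cacna1c was most like Fam217b (0.97), Ppp1r3d (0.97) and Kcne4 (0.96). Kcnma1 was less close to any gene, with Ctps (0.89), Adam22 (0.88) and Map2 (0.87) first and its partner Kcnmb1 at 0.64. Agtr1a was most like Osr2 (0.98), Ptges (0.95) and C7 (0.94), and Rgs5 like Fhl5 (0.97), Trim9 (0.95) and Ephx3 (0.95). Kcnj8 led with Dpf3 (0.92), Abcc9 with Il11 (0.94) and Ednrb with Adssl1 (0.85), and these rest on few UMIs. The r between Kcnj8 and Abcc9 was 0.45.

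The surrounding pathway was read from a list of 104 other genes of vascular tone. In quadriceps 57 reached the 20 CPM minimum, and 34 were higher and 8 lower in smooth muscle than in FAP-like cells, where 7.72% and 13.5% of all genes tested were. In diaphragm 54 reached it, and 34 were higher and 9 lower, where 8.61% and 15.3% of all genes were. The share called higher was above that of all genes in both muscles, while the share called lower was near it. The list was chosen with earlier results of these data known, so this comparison is a description and not an independent check. Of the higher genes, 31 were called in both muscles (91.2% of each list), and of the lower genes 7 were (87.5% of the quadriceps and 77.8% of the diaphragm list). The share of all called genes that were called in both muscles is not given here, so these overlaps describe the list only. The median log2 difference of the listed genes that reached the minimum was 3.57 in quadriceps and 3.19 in diaphragm, beside the -0.35 and -0.30 of all genes tested. As for the 10 genes, this describes the listed genes that passed, which can do so through the class where they are high.

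**Figure D5:**
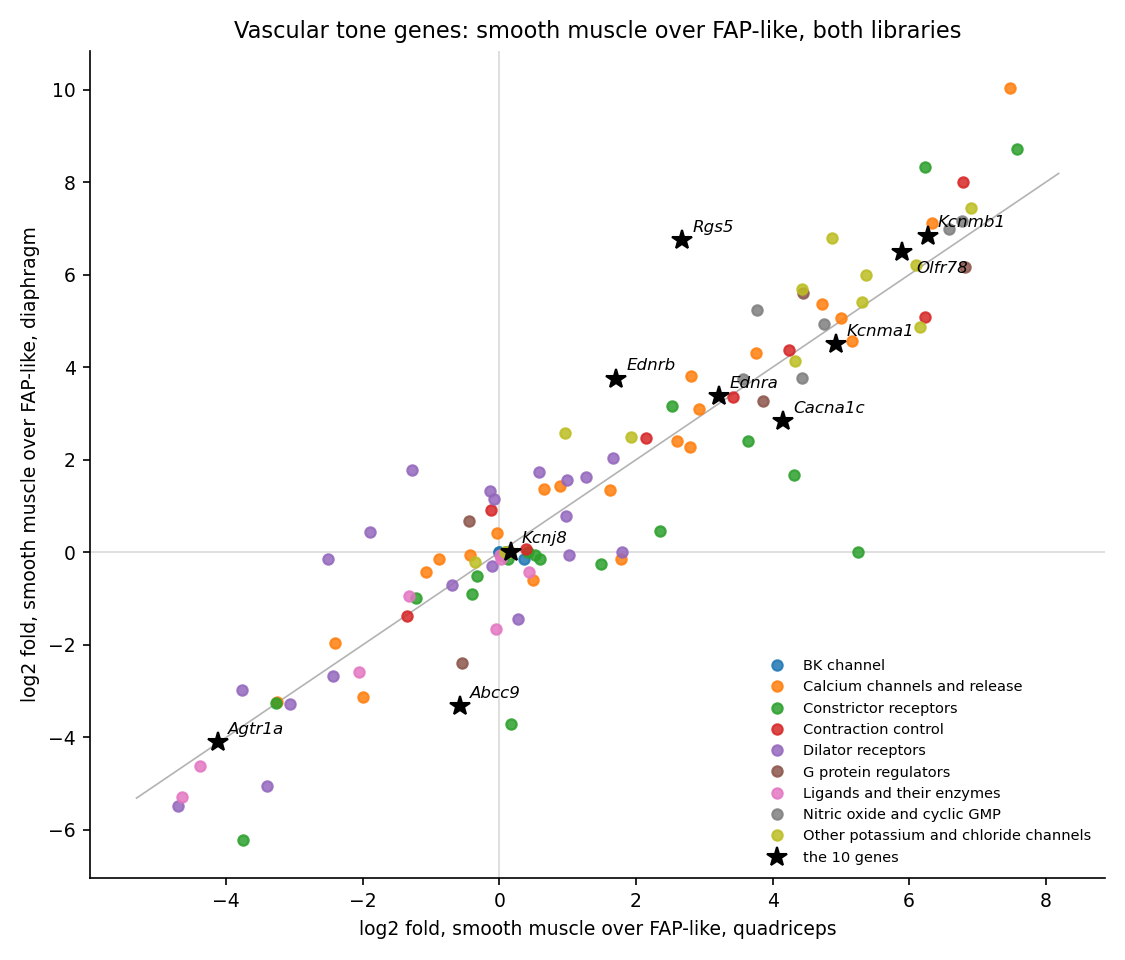
log2 difference of smooth muscle over FAP-like cells in quadriceps (horizontal axis) and diaphragm (vertical axis) for the 104 listed pathway genes coloured by role, with the 10 genes as stars and a line of equality. Most channel, nitric oxide and contraction genes lie in the upper right, and Ramp2, Ptgfr, Ace, Edn1, Npr1 and Npr2 lie in the lower left with Agtr1a.

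Channel and calcium handling genes were called mostly on the smooth muscle side. Over all genes tested, 7.72% were higher and 13.5% lower in smooth muscle in quadriceps, and 8.61% and 15.3% in diaphragm. Of 22 listed calcium genes, 15 reached the minimum in quadriceps with 8 higher and 1 lower, and 13 in diaphragm with 8 higher and 2 lower. Pln, which encodes phospholamban, the brake on the calcium pump of the reticulum, was at 940.4 CPM in quadriceps smooth muscle cells against 4.31 CPM in FAP-like cells, and at 1161 against 0.114 CPM in diaphragm. Cacna1h, a T-type calcium channel, was at 127 against 0.582 CPM in quadriceps. Itpr2, a calcium release channel, was the exception at 4.15 against 48.0 CPM. Of 13 other potassium and chloride channels, 9 reached the minimum in each muscle, and 7 were higher in quadriceps and all 9 in diaphragm. Kcna5, a voltage-gated potassium channel, was at 235 against 0.970 CPM in quadriceps and 266 against 0.530 CPM in diaphragm. Kcnk3, a background potassium channel, was at 94.3 against 0.388 CPM in quadriceps. None of the 3 other BK subunit genes listed reached the minimum.

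Receptors were called on both sides. Of 19 listed constrictor receptors, 6 reached the minimum in quadriceps with 5 higher and 1 lower, and 5 in diaphragm with 2 higher and 2 lower. Npy1r, the receptor for neuropeptide Y released by sympathetic nerves, was at 323 against 3.30 CPM in quadriceps and 343 against 0.0757 CPM in diaphragm. P2rx1, the ATP-gated channel at sympathetic junctions, was at 46.0 CPM in quadriceps smooth muscle cells (841 UMIs) and had 0 UMIs in diaphragm smooth muscle cells, a level at least 7.37-fold lower at the limit of 3 counts, or 5.98-fold by the exact interval. Ptgfr, the prostaglandin F receptor, was higher in FAP-like cells, at 27.2 against 1.09 CPM in quadriceps and 73.7 CPM against 0 UMIs in diaphragm. Of 20 dilator receptors, 7 reached the minimum in quadriceps with 0 higher and 4 lower, and 6 in diaphragm with 1 higher and 3 lower. Over all genes the shares lower were 13.5% and 15.3% and the shares higher 7.72% and 8.61%, and these counts of receptors are small. Ramp2, the adrenomedullin coreceptor, was at 12.5 against 349 CPM in quadriceps, and Npr1, the atrial natriuretic peptide receptor, at 2.57 against 47.4 CPM.

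Every called gene of the downstream machinery was higher in smooth muscle cells. Over all genes tested the shares higher were 7.72% in quadriceps and 8.61% in diaphragm. All 6 nitric oxide and cyclic GMP genes were higher in both muscles, with Gucy1a3, a subunit of soluble guanylate cyclase, at 701 against 5.39 CPM in quadriceps and 648 against 3.52 CPM in diaphragm. Contraction control genes were higher in 5 of 8 in each muscle, with Mylk, the myosin light chain kinase, at 3139 against 27.3 CPM in quadriceps. Other G protein regulators were higher in 3 of the 3 that reached the minimum in quadriceps and 3 of 4 in diaphragm. Rgs4 was at 301 CPM in quadriceps and 654 CPM in diaphragm smooth muscle cells and was called higher in diaphragm together with Kcnj2, the only 2 of 38 listed genes that were, a share near the 4.53% of all genes. None of the 38 was called lower, where 2.81% of all genes were.

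Ligands and their enzymes lay on the FAP side where they were called. Of 8 listed, 3 reached the minimum in each muscle and 2 were lower in smooth muscle in each. Over all genes tested the shares lower were 13.5% in quadriceps and 15.3% in diaphragm, and these counts of ligands and enzymes are small. Ace, the angiotensin-converting enzyme, was at 351 CPM in quadriceps FAP-like cells against 13.1 CPM in smooth muscle cells, and at 279.7 against 6.23 CPM in diaphragm, so the enzyme and the receptor Agtr1a were both highest in FAP-like cells of the classes compared there. Edn1, the endothelin-1 precursor, was at 77.8 CPM in quadriceps FAP-like cells against 2.79 CPM in smooth muscle cells and 111 CPM (19 UMIs) in endothelial-like cells. In diaphragm FAP-like cells Edn1 was at 23.7 CPM, and Edn1 was called lower in diaphragm than in quadriceps FAP-like cells. Of the 18 listed genes that reached 50 CPM in FAP-like cells, 2 were higher in diaphragm (Avpr1a and Ptgfr) and 2 lower (Calcrl and Edn1), where 3.68% and 2.96% of all genes were. Kcnj2, Avpr1a and Calcrl are named for these calls, after their values were seen.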

How the data were processed

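Raw UMI counts per gene and barcode were deposited by the authors, who made them with Cell Ranger 3.0.0 on the mm10 build, per the submitters' processing notes. The annotation and strand setting are not given in the sources used here. Barcodes with at least 1000 UMIs and below the median of log10 UMIs plus 3 scaled MADs were kept, with no mitochondrial limit. Classes were set by marker gates that do not read the 10 genes: the smooth muscle gate, at least 4 markers and 20 UMIs for FAP-like and tenocyte-like cells, and at least 3 markers and 5 UMIs for the others. Those thresholds were set after the marker sums were seen, and the members and lists were chosen with earlier results of these data known. Ighm and Trac were absent from the files. No doublets were removed.

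UMIs were summed by class and scaled to CPM over all UMIs, and log2 differences used a pseudocount of 1 CPM. Intervals are 95% exact Poisson or Clopper-Pearson intervals. Ratios have exact binomial intervals, and a count of 0 was given a limit of 3 counts over the class. Cells are not replicates, so no p-value was computed. Pathway genes were named for the largest differences within each role, and 1 such gene is not reported here. Calculations used Python 3.11.15, numpy 2.4.6, scipy 1.17.1, pandas 2.3.3 and scanpy 1.11.5, and were tested on simulated data. Positions come from GENCODE M21 on GRCm38. Alternatives covered gates, depth and mitochondrial limits, minimum level, pseudocount, scaling, clusters and doublet removal.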

Additional observations from a re-analysis of the deposited data

How the results depend on the processing

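Of 470 fold alternatives, 460 kept their sign, 48 moved by more than the counting interval and 0 reversed a call, and 90 of 96 counts of called genes stayed within 1.5 times. Without a CPM minimum, 2 of the 10 genes in place of 0 were lower in smooth muscle than in FAP-like cells of diaphragm. Between tissues, 2 were then higher and 3 lower in diaphragm than in quadriceps smooth muscle cells, and 2 higher and 3 lower in FAP-like cells. Of the 3 lower in smooth muscle cells, Abcc9 and Agtr1a had 0 diaphragm UMIs, and the intervals of their ratios ran from 0 to 3.77 and 3.88. The share of all genes called without a minimum is not given here, so these counts describe the setting only. With cells thinned to 3000 UMIs, 13 pairs of genes had at least 5 expected cells and a ratio within 1.5-fold of 1, against 7 at 1000 UMIs. The Rgs5 difference between smooth muscle of the tissues lay between 1.96 and 3.02 on the log2 scale, that of Kcnma1 between -1.23 and -1.03, and that of Ednrb between 0.56 and 2.68. A 5% mitochondrial limit, applied to the tissue comparisons after the data were seen, left 6 smooth muscle cells in quadriceps and 0 in diaphragm. On those 6 cells the log2 differences from FAP-like cells were -0.13 for Rgs5 and Ednrb, -1.64 for Kcnj8 and 3.05 for Abcc9, each of the opposite sign to the value without the limit, and the comparisons with diaphragm smooth muscle cells could not be computed under it. Scrublet marked 95 quadriceps barcodes, 69 of them smooth muscle cells, and 3 diaphragm barcodes, a share too low to count as a working call. The 42 diaphragm smooth muscle cells set the precision of the tissue comparison. No paired analysis was possible because there is 1 library per tissue.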
